A study of Mus musculus with 2 samples.

Results

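The genes described here are 9 genes of ion, lactate and glucose transport of the retinal pigment epithelium (RPE): Kcnj13, Best1, Clic6, Slc12a2, Atp1b1, Slc16a8, Slc16a1, Bsg and Slc2a1. They were chosen by name, and all 9 were matched by symbol among the 32285 genes of the count tables. The data are counts of RNA molecules in single cells from the RPE layer of C57BL/6J mice aged 3 months. The subretinal space of their eyes had received, 7 days earlier, either PBS (control) or the DNA-damaging drug doxorubicin (Dox, 100 ng/µl), each in a volume of 1 µl. In each group, 10 eyes from 5 mice were pooled into 1 library, so that no condition had a replicate and no test between conditions was made. The library, the injection and the drug cannot be told apart. The dissociated tissue held the RPE together with the choroid and the sclera, and the study states that the drug reached only a part of the RPE.

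The RPE is a sheet of pigmented cells between the photoreceptors and the choroidal vessels, and nearly all that the photoreceptors take up or give off passes through it. Glucose moves from the blood to the photoreceptors, while the lactate they release is carried back through the RPE by monocarboxylate transporters. A sodium pump and potassium channels on the side of the RPE that faces the retina, together with chloride transport across the cell, set the ion and water balance of the space around the photoreceptors.

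RPE cells were taken as the cells with at least 10 unique molecular identifiers (UMIs, tags that each mark 1 captured RNA molecule) of Rpe65, the retinoid isomerase of the visual cycle. This gave 1526 of 20180 control cells and 1630 of 15426 Dox cells. The cells were also divided by Serpina3n, a serine protease inhibitor gene, at 1000 UMIs per 1000000 UMIs of the cell (CPM). Serpina3n-high RPE cells numbered 15 in the control library (0.983% of RPE cells, 0.551 to 1.62) and 208 in the Dox library (12.8%, 11.2 to 14.5). Levels below are CPM of the summed UMIs of a group. The reads come from the 5′ end of the RNA, each UMI counts 1 molecule whatever its length, and CPM were not divided by gene length. The 95% intervals in parentheses reflect the error of counting alone. They are exact Poisson intervals where the value is a CPM, exact conditional binomial intervals where it is a ratio, and Clopper-Pearson intervals where it is a share of cells.

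The 12 RPE marker genes summed to 180668 CPM in control RPE cells and 179422 CPM in Dox RPE cells, and all 12 were detected. Of the RPE cells, 1317 control and 1404 Dox cells fell in the RPE-like cluster, and most of the others in an unnamed, a melanocyte-like or a fibroblast-like cluster. The median depth was 16013.5 UMIs in control and 18115.5 UMIs in Dox RPE cells, but 766 to 5369 UMIs in the clusters of other cells. The libraries shared 441 barcodes, which 36 control and 49 Dox RPE cells carried. Markers of other cells were present in RPE cells of both libraries. The 14 fibroblast markers summed to 2402 CPM in control and 1574 CPM in Dox RPE cells, and the 10 melanocyte markers, of which several are pigment genes that the RPE also uses, to 2940.3 and 1843 CPM. Their part in the results was not tested.

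Upstream sequences are shown for 3 of the genes with contrasting levels across cell types: Kcnj13, which was high in both pigmented cell classes, Slc16a8, which was highest in the RPE and followed the RPE markers elsewhere, and Best1, which was hardly counted anywhere. Each line gives the 250 bases before the annotated start of the gene, 5′ to 3′ on the gene's strand, from RefSeq (GRCm38.p6). The gene positions given further below are from GENCODE, by which Slc16a8 starts at 79254761, inside its printed window. The intervals are chr1:87394730-87394979 on the minus strand for Kcnj13, chr15:79254749-79254998 on the minus strand for Slc16a8 and chr19:10001634-10001883 on the minus strand for Best1. Capitals mark matches on either strand to CATGTG, an E-box form known to be bound by the pigment cell factor MITF, or to TAATCC, the core bound by OTX factors.
Kcnj13: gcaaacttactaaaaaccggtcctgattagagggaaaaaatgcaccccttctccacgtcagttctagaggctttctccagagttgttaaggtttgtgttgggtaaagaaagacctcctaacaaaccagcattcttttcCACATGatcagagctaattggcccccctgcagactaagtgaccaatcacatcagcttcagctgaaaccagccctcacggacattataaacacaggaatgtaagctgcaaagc
Slc16a8: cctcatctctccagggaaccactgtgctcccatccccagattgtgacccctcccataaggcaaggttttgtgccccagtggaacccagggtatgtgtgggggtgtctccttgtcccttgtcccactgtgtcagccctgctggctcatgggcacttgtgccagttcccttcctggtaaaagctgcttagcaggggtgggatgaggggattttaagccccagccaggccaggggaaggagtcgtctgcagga
Best1: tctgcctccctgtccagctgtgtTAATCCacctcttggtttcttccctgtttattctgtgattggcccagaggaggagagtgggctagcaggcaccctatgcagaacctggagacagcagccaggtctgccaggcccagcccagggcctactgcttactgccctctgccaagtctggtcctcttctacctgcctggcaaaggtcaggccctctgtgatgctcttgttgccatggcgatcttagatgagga
The CATGTG motif, read as CACATG on the printed strand, began 112 bases before the start of Kcnj13. The TAATCC motif began 227 bases before the start of Best1. Among the 6 of 9 genes with a promoter in the RefSeq table, each motif was in 1, while 12.3% of all 32851 promoter windows of that length held CATGTG and 6.25% held TAATCC. The Slc16a8 window held neither set of letters. A match of letters is a description and not a site.

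In RPE cells, Bsg had by far the highest level of the 9 genes, Slc16a8, Atp1b1, Kcnj13 and Slc2a1 followed within a 2-fold range, and Best1 was close to the limit of detection. The order in the control library was Bsg, Slc16a8, Atp1b1, Kcnj13, Slc2a1, Clic6, Slc16a1, Slc12a2 and Best1, and the order in the Dox library was the same. No 2 neighbours in this order had overlapping counting intervals in either library. Between the libraries, none of the genes moved by 1.5-fold.

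Kcnj13 (ENSMUSG00000079436, chromosome 1 from 87386363 to 87394729, minus strand) encodes an inwardly rectifying potassium channel of the apical RPE membrane. Its level was 829.9 CPM in control and 889.6 CPM in Dox RPE cells. A Kcnj13 UMI was found in 95.3% of control RPE cells (median 16013.5 UMIs per cell), against 31.2% of macrophage-like cells (median 4409 UMIs). After thinning of every cell to 2000 UMIs, the shares were 72.9% and 15.2% and still differed. Of its exon bases, 623 (49.1%) are also exonic in Gigyf2 on the opposite strand, and whether the counting used strand is not given in the sources used here, so that reads of these genes may not be told apart.

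Melanocyte-like cells held as much Kcnj13 as the RPE. Their level was 1045 CPM in control and 911 CPM in Dox, which was 126% and 102% of the RPE level. Their Rpe65 level was 517 and 1418 CPM, or 10.4% and 29.1% of that in RPE cells. The melanocyte-like cluster was shallow, with Hbb-bs as its leading gene, and 1335 of its 2107 control cells and 1781 of its 2014 Dox cells had under 2000 UMIs. In its cells with at least 2000 UMIs, 772 in control and 233 in Dox, Hbb-bs was at 2.99 and 3.01 CPM. There Kcnj13 was 1111 and 1174 CPM while Rpe65 was 252 and 335 CPM, or 5.07% and 6.88% of the RPE level. In the shallower cells, Kcnj13 was 800.3 and 673 CPM and Rpe65 1498 and 2395 CPM. Since cells with at least 10 Rpe65 UMIs were counted as RPE cells, the Rpe65 level of the deeper cells was limited by that rule. Ttr, another RPE marker, stood at 24.3% of the RPE level in the shallower and 5.20% in the deeper control cells. In Dox, it stood at 45.1% and 10.4%. The rule also took 82 control and 51 Dox cells out of the melanocyte-like cluster together with their Ttr. The Ttr level of the deeper cells was therefore not independent of the rule, whose part was not tested. Among the cells left, the deeper melanocyte-like cells had more Kcnj13 and less Ttr than the shallower ones in both libraries. The melanocyte gene Pmel, a structural protein of the melanosome, stood at 11038 and 11843 CPM in the same deeper cells. When the libraries were clustered without integration, 1121 control and 295 Dox cells were melanocyte-like, with 1025 and 1179 CPM of Kcnj13.

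**Figure D1:**
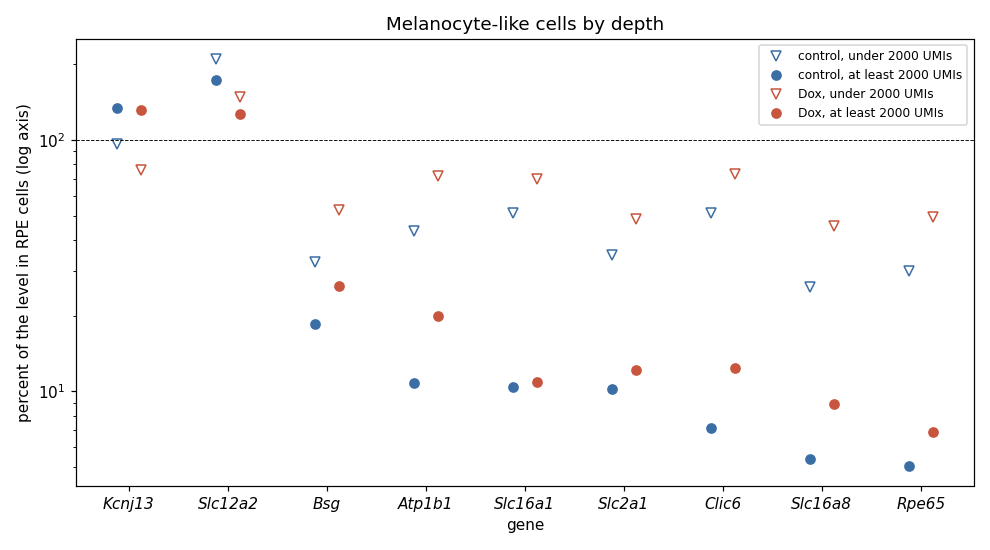
Level in melanocyte-like cells as percent of the level in RPE cells of the same library (log axis), for 8 transport genes and Rpe65. Filled circles are cells with at least 2000 UMIs and open triangles shallower cells; in the deeper cells Kcnj13 and Slc12a2 lay above 100% (dashed line) and Rpe65, which the rule for RPE cells limits there, at 5.07% and 6.88%.

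Best1 (ENSMUSG00000037418, chromosome 19 from 9985174 to 10001633, minus strand), the calcium-activated anion channel of the basolateral RPE membrane whose human gene is mutated in Best disease, was nearly absent from these counts. Only 14 Best1 UMIs were counted in all control RPE cells and 21 in all Dox RPE cells, or 0.53 CPM (0.29 to 0.89) and 0.67 CPM (0.42 to 1.03). The fibroblast-like cells held 237 and 274 UMIs, or 3.58 CPM (3.14 to 4.06) and 4.90 CPM (4.33 to 5.51). The Best1 level of fibroblast-like cells was thus 6.72-fold (3.93 to 12.5) that of RPE cells in control and 7.27-fold (4.66 to 11.9) in Dox. A Best1 UMI was found in 0.917% of control RPE cells and 1.81% of control fibroblast-like cells, whose median depths were 16013.5 and 4678 UMIs. The label of Best1 as an RPE gene was therefore not borne out in these counts, which says nothing of its level by other methods.

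Clic6 (ENSMUSG00000022949, chromosome 16 from 92485736 to 92541243, plus strand) encodes a chloride intracellular channel protein. Control RPE cells held 329 CPM of it and Dox RPE cells 364 CPM. The next highest group was the unnamed cluster in control, at 65.6 CPM, and the melanocyte-like cluster in Dox, at 161 CPM. In the deeper melanocyte-like cells, the Clic6 level was 23.5 CPM in control and 45.1 CPM in Dox.

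Slc12a2 encodes the sodium, potassium and chloride cotransporter that brings chloride into the cell. Its level in RPE cells, 88.5 CPM in control and 101 CPM in Dox, was not the highest of the cell types. The unnamed cluster held 182 and 141 CPM and the melanocyte-like cluster 160.1 and 139.6 CPM. The intervals of the unnamed and the melanocyte-like clusters overlapped in both libraries, and both lay above the RPE. Fibroblast-like cells were close below the RPE, at 75.2 and 75.8 CPM, and the lowest level was that of macrophage-like cells, at 31.9 and 24.6 CPM. The Slc12a2 level of other clusters was 24.3% to 206% of the RPE level, above the range of the RPE markers in each of them.

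Atp1b1 (ENSMUSG00000026576, chromosome 1 from 164437109 to 164458355, minus strand) encodes a beta subunit of the sodium pump. Control RPE cells held 1029 CPM of it and Dox RPE cells 1111 CPM. Outside the RPE and the melanocyte-like and unnamed clusters, its level was 57.7 to 130 CPM in control and 87.8 to 271 CPM in Dox. NK or T-like cells, at 12.6% and 15.6% of the RPE level, lay above the range of the RPE markers in the same cells, which reached 8.58% and 9.84%. In Dox, smooth muscle-like cells (10.8% against a highest marker of 8.94%) also lay above that range. So did macrophage-like cells (8.79% against 8.19%) and Schwann-like cells (24.4% against 17.1%, from 31 UMIs). In control all of these lay within it, with Schwann-like cells at 20 UMIs. The counting error was not set against these limits, so a difference between the libraries is not shown. Of its exon bases, 575 (18.7%) are also exonic in Nme7 on the opposite strand.

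Slc16a8 (ENSMUSG00000032988, chromosome 15 from 79251014 to 79254761, minus strand) encodes MCT3, the monocarboxylate transporter of the basolateral RPE membrane. Its level was 1473 CPM in control and 1437 CPM in Dox RPE cells. In control it was 8.33-fold (7.59 to 9.16) above the unnamed cluster, the next highest, and fibroblast-like cells held 52.6 CPM. In all 8 other clusters its level lay within the range of the 12 RPE markers in those cells, or below it.

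Slc16a1 (ENSMUSG00000032902, chromosome 3 from 104638668 to 104658462, plus strand) encodes MCT1, a monocarboxylate transporter found in many tissues and on the apical side of the RPE. Control RPE cells held 257 CPM of it and Dox RPE cells 249 CPM, well below Slc16a8. The next levels in control, those of Schwann-like cells at 60.5 CPM (31.2 to 105.6, from 12 UMIs), the unnamed cluster at 53.5 CPM and melanocyte-like cells at 49.0 CPM, had overlapping intervals. In Dox, melanocyte-like cells came next at 104 CPM, and the interval of the 5 UMIs in Schwann-like cells reached 102 CPM. The deeper melanocyte-like cells held 26.7 CPM of Slc16a1 in control and 27.1 CPM in Dox, against 132 and 174 CPM in the shallower ones.

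Bsg (ENSMUSG00000023175, chromosome 10 from 79704491 to 79711969, plus strand) encodes basigin, the partner protein that carries MCT1 and MCT3 to the membrane. Control RPE cells held 6398 CPM of it and Dox RPE cells 6284 CPM, and a Bsg UMI was found in 99.4% and 99.9% of them. Every other cluster held Bsg too, from 521 to 1377 CPM in control and from 582 to 2526 CPM in Dox. The highest of these values were those of melanocyte-like cells, whose deeper cells held 1186 and 1654 CPM. In endothelial-like cells, the level was 13.2% and 16.7% of that in RPE cells, above the highest RPE marker in the same cells at 8.37% and 13.0%. Macrophage-like, NK or T-like, smooth muscle-like and Schwann-like cells also lay above their highest RPE marker in both libraries.

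Slc2a1 (ENSMUSG00000028645, chromosome 4 from 119108711 to 119137983, plus strand) encodes the glucose transporter GLUT1. Its level was 771 CPM in control and 818 CPM in Dox RPE cells. Endothelial-like cells came next, at 428 and 356 CPM, or 55.6% and 43.5% of the RPE level. In no other cluster did Slc2a1 exceed 136 CPM in control or 256 CPM in Dox. The latter was the level of melanocyte-like cells, whose deeper cells held 79.1 CPM of Slc2a1 in control and 99.3 CPM in Dox. The highest levels of Slc2a1 were thus those of RPE cells and of endothelial-like cells, which line the vessels.

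**Figure D2:**
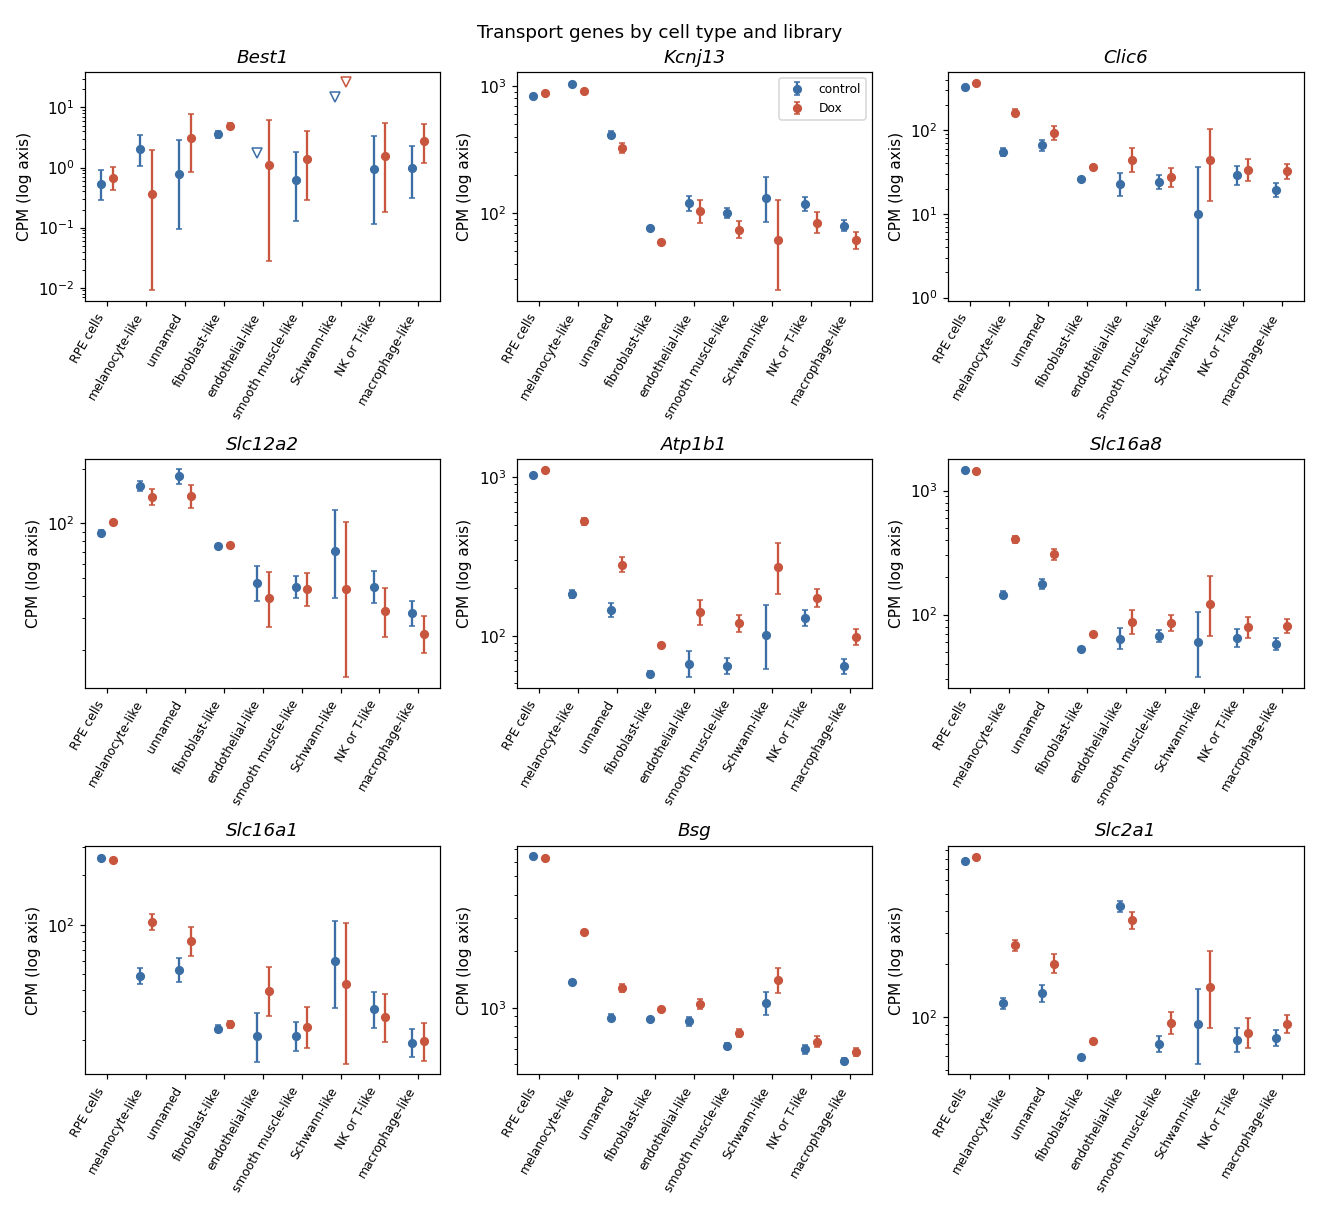
Level of each gene (CPM, log axis) in RPE cells and 8 other clusters, for the control library (blue) and the Dox library (red); bars are 95% Poisson intervals and open triangles mark the 3-count limit where no UMI was counted. Kcnj13 was as high in melanocyte-like cells as in RPE cells, Slc2a1 was also high in endothelial-like cells, and Best1 was highest, among groups with a count, in fibroblast-like cells at 3.58 and 4.90 CPM.

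A UMI of an RPE gene in another cell can be free RNA. The 12 RPE markers, of which Rpe65 is also the gene of the rule for RPE cells, gave its scale. Their median level in the other named clusters was 4.04% to 10.9% of the RPE level in control and 5.45% to 31.1% in Dox. The highest value of a named cluster was that of melanocyte-like cells in each library. The unnamed cluster stood at 11.1% in control and 17.2% in Dox. Against this, 5 of the 9 genes were at least 4-fold above every other cluster in control, where 1.43% of all tested genes were. Best1 had enough UMIs over all clusters to be tested here and did not pass. They were Slc16a8, Slc16a1, Bsg, Atp1b1 and Clic6, with Slc16a1 at 4.25-fold (2.43 to 8.23). Without integration of the libraries, or with the mean of the cells' own CPM, the count in control was 1. The shares of all tested genes under these settings are not given here. Without integration, 1433 control cells (median 844 UMIs) formed an erythroid-like cluster led by Hbb-bs. There Rpe65 stood at 26.9% of the RPE level, Slc16a8 at 24.7%, Bsg at 32.6%, Atp1b1 at 40.4%, Clic6 at 44.2% and Slc16a1 at 48.0%. In melanocyte-like cells without integration, the 5 transport genes stood at 4.77% to 16.1%. In Dox, with integration, 0 of 9 genes were at least 4-fold above every other cluster, where 0.0665% of all tested genes were. Rpe65 itself, whose level outside RPE cells the rule limits, was 3.43-fold above melanocyte-like cells. With the melanocyte-like and unnamed clusters not compared, a setting chosen after seeing the data, 6 genes passed in control and 6 in Dox. Kcnj13, at 126% and 102% of the RPE level in melanocyte-like cells, was among them only because that cluster was left out. The share of all tested genes under this setting is not given here, so these counts cannot be set beside the shares above.

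**Figure D3:**
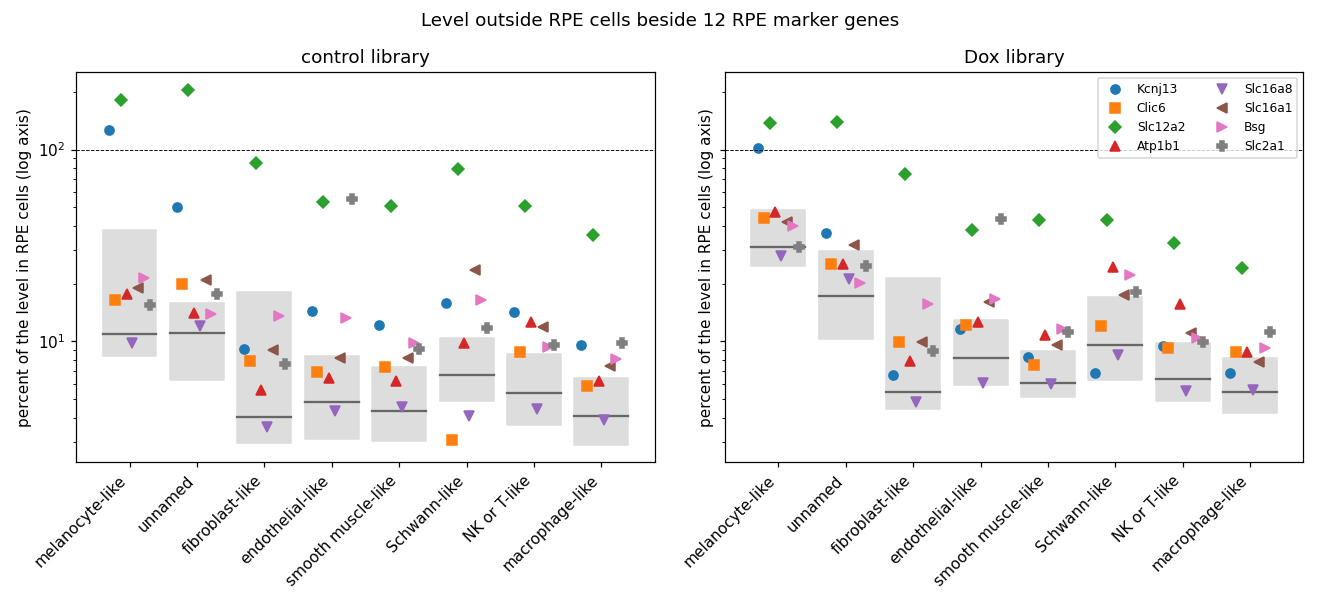
Level outside RPE cells as percent of the RPE level (log axis) for 8 genes in each cluster and library; grey boxes span the lowest to highest of the 12 RPE markers and the dark line is their median. Among the points above the boxes in both libraries were Kcnj13 in the melanocyte-like and unnamed clusters, Slc2a1 in endothelial-like cells and Slc12a2 in all 8 clusters. In control, Kcnj13 lay above the boxes in every cluster but the fibroblast-like one. Slc16a8 lay in or below the boxes.

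The genes whose levels most resembled each gene were found by Pearson's r of log2(CPM + 10) over 16 groups, the cell types of both libraries, which share library and free RNA. Kcnj13 was most like Tspan10 (r = 0.993), a tetraspanin. Slc16a8 was most like Rsph10b (r = 0.995), followed by the visual cycle genes Rgr and Rdh5. Slc16a1 was most like Myh14 (r = 0.988), a non-muscle myosin, and Atp1b1 was most like Mt3 (r = 0.980), a metallothionein. Clic6 was most like Ins2 (r = 0.994), an insulin gene, Bsg was most like Rida (r = 0.988), Slc2a1 was most like Npr1 (r = 0.964) and Slc12a2 was most like Mpv17 (r = 0.952). For Best1, under 50 CPM in every group, the value with Arap1 (r = 0.875) rests on few counts. These values are descriptions.

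The Dox and control libraries were first compared over all RPE cells. Past 1.5-fold were 0 of 8 genes, where 4.43% of all tested genes were (1.14% higher and 3.29% lower), and Best1 had too few UMIs to be counted. The largest log2 ratios were those of Slc12a2, at 0.19 (0.12 to 0.27), and Clic6, at 0.15 (0.11 to 0.19). Atp1b1 followed at 0.11, Kcnj13 at 0.10 and Slc2a1 at 0.09. Bsg stood at -0.03 and Slc16a8 at -0.04, and Slc16a1, at -0.05 (-0.09 to 0.00), had an interval that included 0. The median of the 8 genes was 0.09 and that of all tested genes -0.01. Over the same cells, Serpina3n had a log2 ratio of 3.90, from 79.4 to 1184 CPM, and Rpe65, the gene of the rule for RPE cells, of -0.03.

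In Serpina3n-low RPE cells, 1511 in control and 1422 in Dox, again 0 of 8 genes were past 1.5-fold, where 2.92% of all tested genes were (0.514% higher and 2.41% lower). The ratios ran from 0.02 for Slc16a8 to 0.24 (0.20 to 0.28) for Clic6, which went from 332 to 392 CPM. With cells thinned to 2000 UMIs, those of Slc16a8 (-0.06), Bsg (-0.02) and Kcnj13 (-0.0004) were below 0.

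Within the Dox library, Slc16a1 and Clic6 were lower in Serpina3n-high than in Serpina3n-low RPE cells, and the other 6 tested genes did not pass 1.5-fold. Past it were thus 2 of 8 genes, where 21.8% of all tested genes were past it (4.1% higher and 17.7% lower), a share close to that of the 8 genes. Slc16a1 went from 274 CPM in Serpina3n-low to 134 CPM in Serpina3n-high cells, a log2 ratio of -1.03 (-1.14 to -0.92). The middle cells showed this too, with a median of 245 CPM per cell in Serpina3n-low and 116 CPM in Serpina3n-high cells. Clic6 went from 392 to 237 CPM, a log2 ratio of -0.73 (-0.81 to -0.65). Slc2a1 went from 858 to 633 CPM (-0.44), Slc16a8 from 1500.3 to 1145 CPM (-0.39) and Bsg from 6532 to 5145 CPM (-0.34). The ratios of these last 3 genes did not pass 1.5-fold. Slc12a2 went from 95.3 to 129 CPM (0.44), Kcnj13 from 878 to 941 CPM (0.10) and Atp1b1 from 1111 to 1114 CPM (0.00). The median of the 8 genes was -0.37 and that of all tested genes -0.17, and Rpe65 stood at -1.49, from 5499 to 1954 CPM. Rpe65 is the gene of the rule for RPE cells, which asks a higher Rpe65 share of shallower cells. Its ratio is thus not independent of the rule and is no measure for the other genes.

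Depth moved with this division, since the median was 16608 UMIs in Serpina3n-low and 28244 UMIs in Serpina3n-high Dox RPE cells. The level of Slc16a1 in all control RPE cells was 346 CPM in the third of cells with the fewest UMIs and 216 CPM in the third with the most, that of Slc12a2 128 and 78.3 CPM, and that of Bsg 3770.3 and 7189 CPM. Cells of 20000 to 40000 UMIs were therefore also compared, 499 Serpina3n-low and 137 Serpina3n-high in Dox, a setting chosen after seeing the data. There Slc16a1 went from 255 to 127 CPM (-1.01), Clic6 from 389 to 229 CPM (-0.76) and Slc12a2 from 84.0 to 123 CPM (0.55). The median depth still differed there, at 26737 UMIs in Serpina3n-low and 30219 UMIs in Serpina3n-high cells. With each cell thinned to 2000 UMIs, Slc16a1 had a log2 ratio of -1.12, Clic6 of -0.47, under 1.5-fold, and Slc12a2 of 0.05. The fibroblast markers, 1787 CPM in Serpina3n-low and 594 CPM in Serpina3n-high cells, moved with the division as well, and the melanocyte markers, at 1835 and 1881 CPM, did so little. Their part was not tested.

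The control library had only 15 Serpina3n-high RPE cells with 452790 UMIs, of which 4 were among the cells with the highest doublet scores. Past 1.5-fold against Serpina3n-low control cells were 3 of 8 genes, all lower, where 37.6% of all tested genes were past it (9.29% higher and 28.3% lower) and the median of all tested genes was -0.14. Slc16a1 stood at 259.7 CPM in Serpina3n-low and 97.2 CPM in Serpina3n-high cells (-1.42), Clic6 at 332 and 172 CPM (-0.94) and Kcnj13 at 839.5 and 280.5 CPM (-1.58). With cells thinned to 2000 UMIs, the log2 ratios in control were -0.30 for Slc16a1 and -0.34 for Clic6, under 1.5-fold, and -2.07 for Kcnj13. Whether the Kcnj13 ratio differs between the libraries was not tested. Atp1b1, at 1022 and 1420.1 CPM, and Bsg, at 6383 and 7253 CPM, were higher in the 15 cells. Their melanocyte markers summed to 3997 CPM, against 2922 CPM in Serpina3n-low control cells.

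Between Serpina3n-high cells of Dox and control, 2 of 8 genes were past 1.5-fold, both higher in Dox, where 20.4% of all tested genes were past it (12.7% higher and 7.71% lower). They were Kcnj13, from 280.5 to 941 CPM or 3.35-fold, and Slc12a2, from 83.9 to 129 CPM or 1.54-fold. For Kcnj13 the middle cell of the 15 was at 249.9 CPM, with quartiles of 148 and 375 CPM, and the middle cell of the 208 was at 737 CPM, with quartiles of 413 and 1217 CPM. Both ratios rest on the 15 control cells. With cells of 20000 to 40000 UMIs only, 1 of the 8 genes passed, where 536 of 4407 tested genes were higher and 408 lower.

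**Figure D4:**
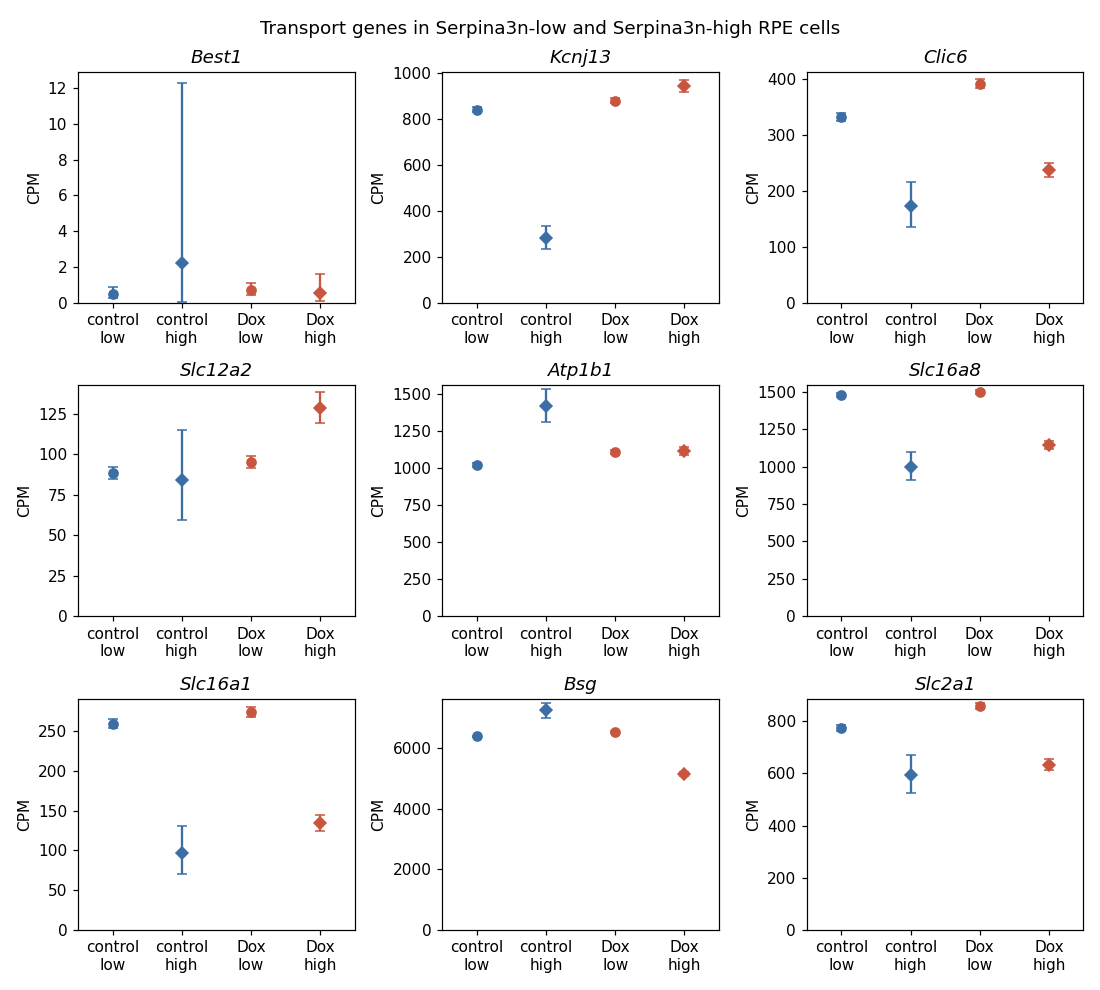
Level (CPM, linear axis from 0) of the 9 genes in Serpina3n-low (circles) and Serpina3n-high (diamonds) RPE cells of the control library (blue) and the Dox library (red), with 95% Poisson intervals. Slc16a1 and Clic6 were lower past 1.5-fold in Serpina3n-high cells of both libraries. After thinning to 2000 UMIs, only Slc16a1 in Dox still passed of these. The thinned values of the 15 Serpina3n-high control cells rest on few UMIs. Kcnj13 stood at 280.5 CPM in the 15 Serpina3n-high control cells and at 839.5 to 941 CPM in the other groups.

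A wider list of 100 other transport genes was read in the same way. Of the 66 with enough UMIs in RPE cells, 4 were past 1.5-fold between the libraries, all lower in Dox, where 4.43% of all tested genes were past it. Among these were 3 regulators of the sodium pump of the FXYD family, Fxyd1 (55.4 to 25.5 CPM), Fxyd5 (11.5 to 7.08 CPM) and Fxyd6 (24.4 to 7.02 CPM). The fourth was Slc45a2, a melanosome transporter, which went from 31.0 to 14.9 CPM. The fibroblast and melanocyte markers given above were also lower in Dox RPE cells. So were those of macrophages (415 to 190.0 CPM), of smooth muscle (485 to 327 CPM) and of NK or T cells (21.4 to 3.78 CPM), and the part of all of these was not tested. Of the genes with high levels in the RPE, Car14, a carbonic anhydrase, stood at 1547 and 1554 CPM, Trpm3, a cation channel, at 1209.8 and 1223 CPM, and Slc4a5, a bicarbonate cotransporter, at 472 and 471 CPM. Slc6a13, a GABA and taurine transporter, stood at 472 and 405 CPM (log2 ratio -0.22) and Slc6a20a, an amino acid transporter, at 396 and 442 CPM (0.16). Atp1b2, another beta subunit of the sodium pump, went from 207 to 306 CPM (log2 ratio 0.56), and Slc26a7, an anion exchanger, from 106 to 152 CPM (0.52).

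Between Serpina3n-low and Serpina3n-high cells of the Dox library, 4 of 64 tested genes of the wider list were higher and 24 lower past 1.5-fold. Of all tested genes, 21.8% were past it (4.1% higher and 17.7% lower). The median log2 ratio was -0.36 for the 64 genes and -0.17 for all tested genes. Parts of the list, with genes of the 9 counted in, had median log2 ratios from -0.82 for 3 potassium channel genes to 0.00 for 9 sodium pump genes. The 10 tested genes of acid, base and water transport stood at -0.53, with 4 lower past 1.5-fold. The 8 tested monocarboxylate genes, Slc16a1, Slc16a8 and Bsg among them, had a median log2 ratio of -0.51, and 4 of them were lower past 1.5-fold. Slc16a6 went from 66.5 to 30.9 CPM and Emb, which encodes embigin, another partner of monocarboxylate transporters, from 15.1 to 4.85 CPM. The fibroblast markers also fell between these cells, from 1787 to 594 CPM, and their part in the low Emb level was not tested. The sodium pump subunit gene Atp1b2 went from 236 to 627 CPM (1.41, 1.35 to 1.47), while the interval of the Atp1b1 ratio included 0. Slc26a7 was also higher, from 120 to 302 CPM (1.34). Among the genes that were lower past 1.5-fold, Slc6a13 went from 469 to 114 CPM (-2.04), Slc22a8, an organic anion transporter, from 183 to 59.8 CPM (-1.61), and Slc4a5 from 511 to 289 CPM (-0.82). Slc1a1, a glutamate transporter, stood at 495 and 687 CPM (0.47).

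**Figure D5:**
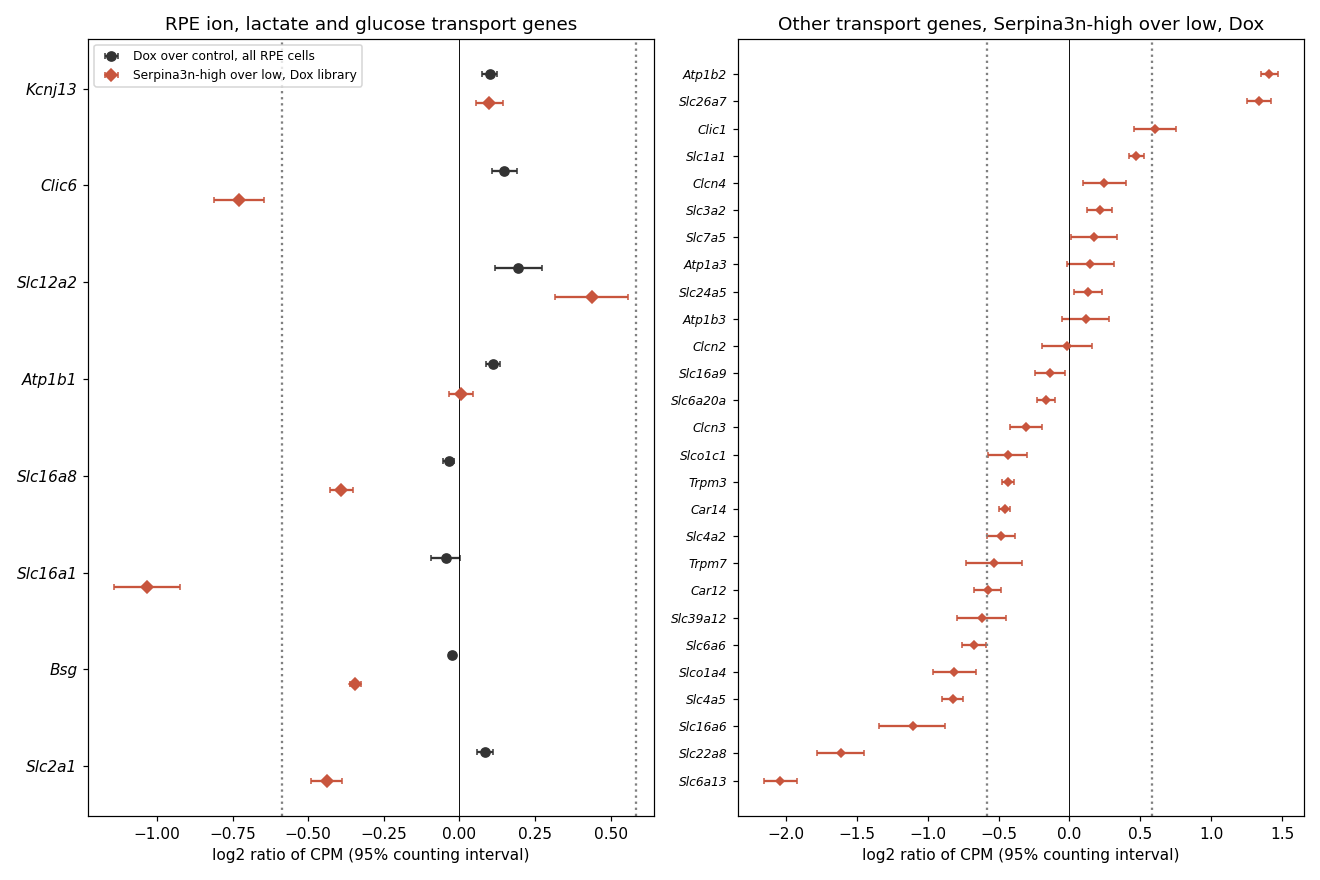
Log2 ratios of CPM with 95% counting intervals; dotted lines mark 1.5-fold. Left, 8 of the 9 genes (Best1 had too few UMIs) for Dox over control in all RPE cells (circles) and for Serpina3n-high over Serpina3n-low cells of the Dox library (diamonds). Right, other transport genes of at least 50 CPM in 1 of the 2 cell groups, from Slc6a13 at -2.04 to Atp1b2 at 1.41.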

How the data were processed

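The authors aligned reads of a 10x 5′ single-cell kit to mm10 using Cell Ranger, for which the file header gives version 4.0.0, and deposited raw counts of UMIs per gene and cell. The cells used here (20180 control, 15426 Dox) had over 500 UMIs, 200 to 6000 genes, a mitochondrial share below 0.2, and log10 genes over 0.8 of log10 UMIs. The deposited libraries held 117731270 and 103997248 UMIs. Other cells were clustered with Seurat 5.3.0 (SCTransform, integration on 3000 features, 40 components, resolution 0.1, R 4.3.3) and named from marker lists. The genes of interest, lists and thresholds were chosen with earlier results of these data known.

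UMIs were summed per group with Python 3.11.15 and given as CPM with intervals (scipy 1.17.1). Genes with at least 100 UMIs over the groups compared were counted as tested, and a gene was called past 1.5-fold between RPE groups or 4-fold between cell types. There was no significance test, since each condition is 1 library. Named genes were the 9 genes, the 3 most like each, and transport genes of at least 50 CPM in RPE cells or past 2-fold. Fxyd5, Fxyd6, Slc45a2 and Emb are named as called genes or for their role, after their values were seen. Some genes of the wider list are left out of the text and figures. Doublets were removed only by the limit on genes. Scrublet (scanpy 1.11.5) called 1941 control and 0 Dox cells, so it did not work for Dox, and the highest scores were left out as an alternative. Interval coverage was tested on simulated data. Positions are from GENCODE vM21 on GRCm38, the assembly of mm10. Figures used matplotlib 3.10.9.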

Additional observations from a re-analysis of the deposited data

How the results depend on the processing

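No paired analysis was possible because each condition is 1 library. Of 118 counts of genes under 16 planned and 3 added alternatives, 103 stayed within 1.5 times the main count and 15 moved, and of 731 log2 ratios of the 9 genes 581 stayed within the main interval, 150 moved and none reversed a called direction. The uncalled ratio of Slc2a1 between Serpina3n-high and Serpina3n-low control cells ran from -0.67 to 0.03 (Serpina3n at 2000 CPM). Other uncalled ratios changed sign too. Among them, that of Slc12a2 between the same cells ran from -0.57 to 0.41. Between Dox and control Serpina3n-high cells, Slc16a1 ran from -0.77 (thinned) to 0.65 and Slc2a1 from -0.32 to 0.28. Atp1b1 between Serpina3n-high and Serpina3n-low Dox cells ran from -0.15 to 0.20. Of the genes past 1.5-fold between Dox and control in Serpina3n-high cells, 1 was counted with at least 20 Rpe65 UMIs, in the RPE-like cluster only, in cells thinned to 2000 UMIs, and in cells of 20000 to 40000 UMIs (added). Between Serpina3n-high and Serpina3n-low Dox cells the count was 1 with the mean of the cells' own CPM and 1 in thinned cells. Of all tested genes, 459 were higher and 2433 lower of 10432 with the mean, and 263 and 848 of 4119 in thinned cells. In control the count was 5 without the highest Scrublet scores, where 1026 were higher and 2777 lower of 9433 tested genes. Of the transport list, 7 genes were past 1.5-fold between Dox and control RPE cells with at least 20 Rpe65 UMIs, with 2000 CPM of Rpe65 or in the RPE-like cluster. With at least 20 UMIs per gene, 9 were. Of all tested genes, 116 were higher and 462 lower of 11370 in the first setting. In the second, 73 and 365 of 11305 were, and in the third 130 and 450 of 11351. With at least 20 UMIs per gene, 416 were higher and 1057 lower of 14215. How many genes of the list were tested in each setting is not given here. Genes at least 4-fold above every other cluster numbered 1 in control with the mean of the cells' own CPM or no integration, 2 in Dox in thinned cells, and 6 in Dox without the melanocyte-like and unnamed clusters (added). The shares of all tested genes at 4-fold under these settings are not given here. The log2 ratio of Slc16a1 between Serpina3n-high and Serpina3n-low Dox cells ran from -1.12 (thinned) to -0.71 (2000 CPM of Rpe65), that of Clic6 from -0.78 to -0.47, and that of Slc12a2 from 0.05 to 0.61. In the 15 control cells, Slc16a1 ran from -1.56 to -0.30 and Clic6 from -1.07 to -0.34 (both highest when thinned, with few UMIs left). The causes were not tested. Best1 did not exceed 4.90 CPM in any group of the main setting, and its level in RPE cells rests on 14 control and 21 Dox UMIs.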
